A study of Mus musculus with 21 samples.

Results

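The imprinted growth loci around H19 and Meg3 were measured as the probes that carry the name of 1 of 10 imprinted genes (H19, Igf2, Nctc1, Cdkn1c, Meg3, Rian, Mirg, Dlk1, Peg3 and Airn) or lie within the H19 gene on mouse genome build mm9. These were 23 of the 55681 probes of the array. H19 had 7 probes, Airn 4, Meg3 3, Mirg, Dlk1 and Peg3 2 each, and Igf2, Nctc1 and Cdkn1c 1 each. No probe was named Rian, so 9 of the 10 genes were measured. The genes were chosen with their contrast between fiber types and their covariation across myofibers already known, so both are given here as a description, without a test.

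Imprinted genes are read mainly from the copy inherited from 1 parent, and a control region carries DNA methylation on only 1 of the copies. H19 and Igf2 share such a region and are read from opposite copies, H19 from the maternal and Igf2 from the paternal one, and the same holds for Meg3 and Dlk1. Many of these genes act on growth in the embryo, and H19 is a non-coding RNA that stays abundant in skeletal muscle after birth. The arrays do not tell the parental copies apart.

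Single myofibers were isolated with collagenase from the hind limbs of CD1 mice at 3 months of age, and the RNA of each was amplified, labelled with Cy3 and hybridized to its own single-color Agilent array. There were 11 type 1 (slow, MyHC-1) myofibers from soleus and 10 type 2B (fast, MyHC-2B) myofibers from extensor digitorum longus (EDL), without further treatment or genotype. Each type came from 6 of 9 mice, and 3 mice gave both types. Because each type came from its own muscle, fiber type and muscle cannot be told apart. The labels give the mice as male, and the methods name female mice for this experiment.

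Values are log2 of the processed scanner intensity after quantile normalization between the 21 arrays, and a difference is the mean of type 2B minus that of type 1, with the standard error of limma. The probe of a gene with the highest mean signal over all myofibers is called its lead probe. Levels of different probes cannot be set against each other on this scale. Between 60% and 91.4% of the probes of an array were positive and significant against background. The arrays were printed on 6 slides, and the 75th percentile of the intensity was 335 to 503 scanner units on slide 1, which held 4 myofibers of each type, and 52.8 to 179 on the other slides. The defining myosin of each type followed the labels: Myh4 did not overlap between the types (difference 11.63 ± 0.63), nor did Myh7 (-8.07 ± 0.62). The type 1 myofiber S6.4 stood apart, with a Myh7 signal of 9.22 against 15.53 or more in the other type 1 myofibers and the highest Myh2 signal, 15.22.

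The H19 gene lies on the reverse strand of chromosome 7 (149761435 to 149764019, a lincRNA in the annotation of the array). Its probes are shown because the H19 difference rests on 6 of them and the last does not follow them. They are listed from the 3′ to the 5′ end of the gene, at chr7:149761492-149761551, chr7:149761693-149761752, chr7:149761756-149761815, chr7:149761957-149762016, chr7:149762113-149762172, chr7:149762173-149762232 and chr7:149762417-149762476, each written 5′ to 3′ on the reverse strand, without capitals.
A_55_P1961127: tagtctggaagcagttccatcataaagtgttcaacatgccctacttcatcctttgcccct
A_30_P01021588: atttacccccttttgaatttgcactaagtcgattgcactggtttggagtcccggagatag
A_30_P01025068: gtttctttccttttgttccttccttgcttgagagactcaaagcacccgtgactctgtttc
A_30_P01028007: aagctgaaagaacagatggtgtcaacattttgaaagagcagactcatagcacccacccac
A_30_P01028827: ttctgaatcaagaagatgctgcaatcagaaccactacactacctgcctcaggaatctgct
A_30_P01026972: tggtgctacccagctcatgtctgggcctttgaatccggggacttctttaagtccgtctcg
A_55_P1961125: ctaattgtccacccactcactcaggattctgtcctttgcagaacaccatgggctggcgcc

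H19 was higher in type 1 than in type 2B myofibers. At the lead probe, A_30_P01026972, the 11 type 1 myofibers ranged from 14.13 to 15.69 with a median of 15.28. The 10 type 2B myofibers ranged from 10.54 to 13.23 with a median of 12.81. Every type 1 myofiber lay above every type 2B myofiber. The difference was -2.52 ± 0.29, or 5.73-fold on the linear scale. Over mouse means the level was 15.002 ± 0.590 (SD, n = 6 mice) in type 1 and 12.596 ± 0.549 (SD, n = 6 mice) in type 2B.

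**Figure D1:**
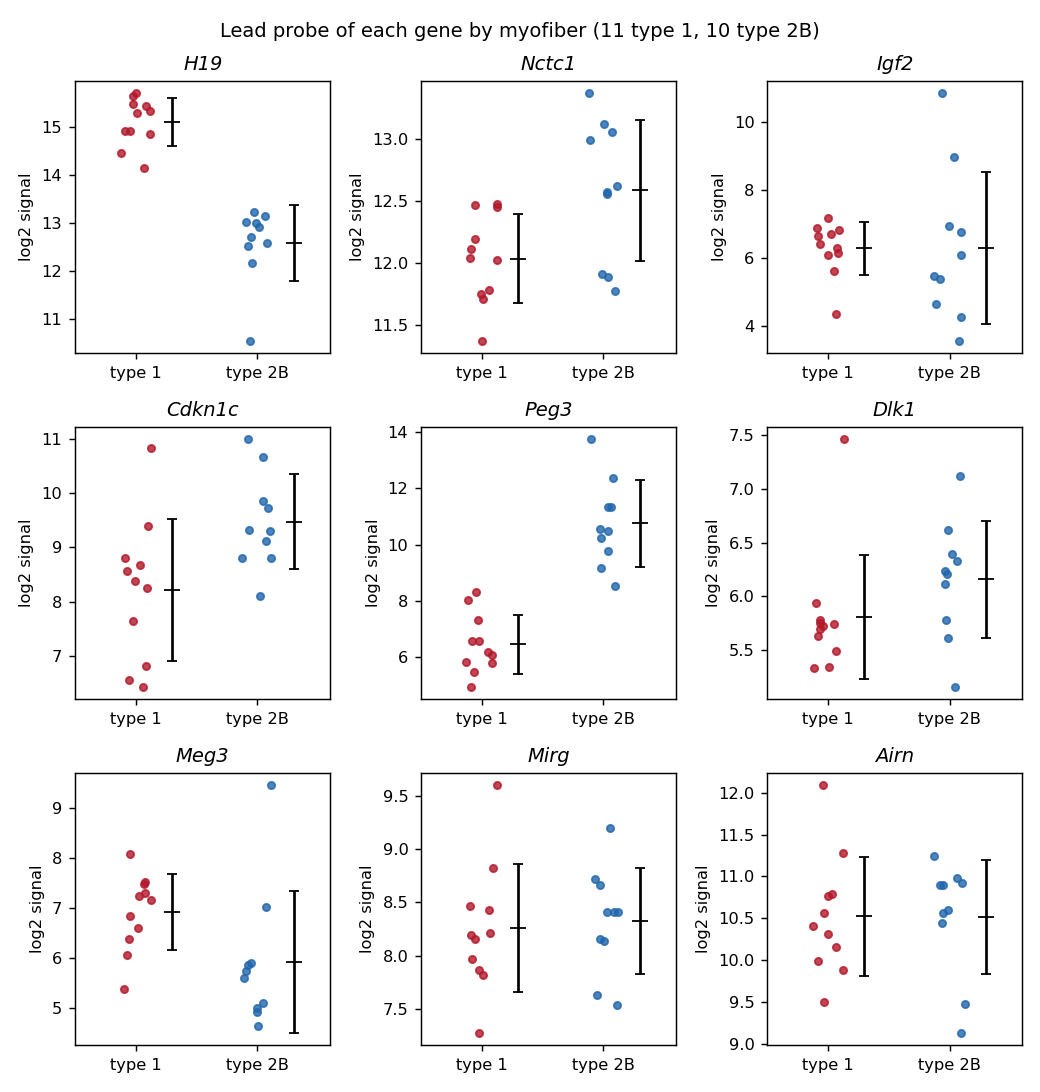
Log2 signal of the lead probe of each of the 9 genes in type 1 (red) and type 2B (blue) myofibers, with 1 point per myofiber and the mean ± SD over myofibers in black. H19 and Peg3 do not overlap between the types and run in opposite directions. The other genes overlap.

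Of the other H19 probes, 5 had differences between -2.51 and -3.04, and in all myofibers they were well above background. The groups also did not overlap at A_55_P1961127, A_30_P01028007 and A_30_P01028827. At A_30_P01021588 and A_30_P01025068 the ranges met. At A_30_P01021588 the type 1 myofibers reached down to 12.57 and a type 2B myofiber reached 13.07. The deviations of these 6 probes from the type means were correlated across the 21 myofibers, with Pearson r between 0.39 and 0.94 over their 15 pairs. The probe farthest from the 3′ end, A_55_P1961125, was different. It spanned 6.55 to 8.66 in type 1 and 5.73 to 9.73 in type 2B, with a difference of -0.79 ± 0.37, and its r with the other 6 was 0.07 to 0.28. Its highest value came from the type 2B myofiber E10.4.

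**Figure D2:**
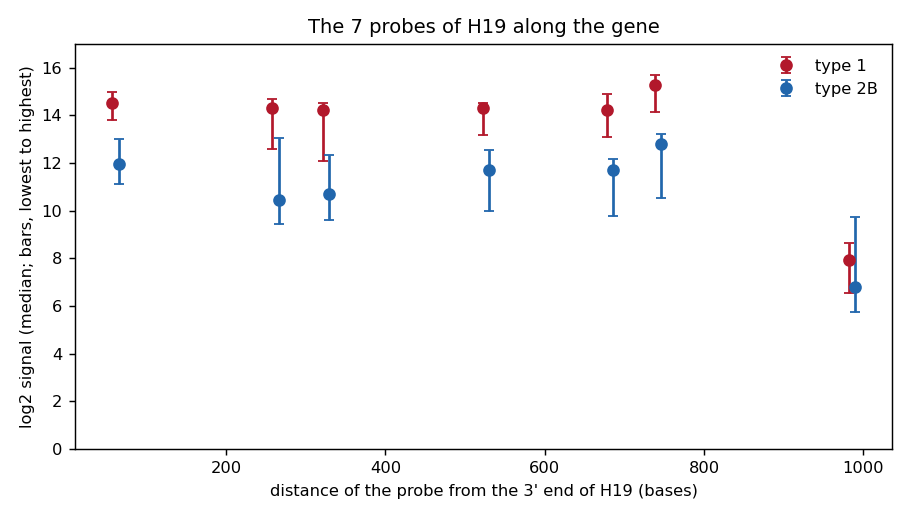
The 7 H19 probes by their distance from the 3′ end of the gene in bases, with the median log2 signal (points) and the lowest to highest myofiber (bars) in type 1 (red) and type 2B (blue). The types lie apart at the 6 probes nearer the 3′ end, where ranges meet at 2 of them, and overlap at the last probe.

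At the lead probe the H19 difference had the same sign wherever it could be taken within a mouse or a slide. At the last probe, A_55_P1961125, it was 1.42 within mouse 4, against -0.94 and -1.32 within mice 3 and 9. Within the 3 mice that gave both types the lead probe differed by -2.40 (mouse 3), -3.32 (mouse 4) and -1.88 (mouse 9). Within slides 1, 2 and 3, which held both types, it differed by -2.41, -2.71 and -1.91, without overlap in any of them. Without S6.4 the difference was -2.46 ± 0.30.

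Nctc1 is a non-coding RNA gene next to H19, near enhancers that are active in muscle. Its probe (chr7:149739640-149739699) ranged from 11.37 to 12.48 in type 1, with a median of 12.04. In type 2B it ranged from 11.77 to 13.37 with a median of 12.60. The direction was opposite to that of H19 and the groups overlapped, although 7 of the 10 type 2B myofibers lay above the highest of type 1. The difference was 0.55 ± 0.23. It was 1.11 within slide 1, without overlap, and 0.27 and 0.48 within slides 2 and 3.

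Igf2 encodes insulin-like growth factor 2 and is the partner of H19. Its probe ranged from 4.35 to 7.19 in type 1, with a median of 6.43, and from 3.57 to 10.85 in type 2B, with a median of 5.80. The difference was -0.003 ± 0.662. The highest type 2B values were those of E14.3 (10.85) and E15.3 (8.99), both from mouse 3 and on slide 3, and the other 8 type 2B myofibers lay between 3.57 and 6.96. The within-type SD of Igf2, 1.63, was above that of 94.0% of the probes of like level. The arrays of E14.3 and E15.3 were among the dimmest, with 63.8% and 60% of probes positive and significant, while the 2 type 1 myofibers on that slide had Igf2 at 6.43 and 6.66. The part of the array brightness in these values was not tested.

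Cdkn1c encodes the CDK inhibitor p57, which restrains cell division, and lies farther along the same stretch of chromosome 7. It had type 1 values of 6.43 to 10.83 (median 8.38) and type 2B values of 8.11 to 10.99 (median 9.31). The difference was 1.25 ± 0.47, with overlap. Within the 3 mice that gave both types it was 1.43, 1.40 and 0.47.

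Peg3, a paternally expressed zinc finger gene on the proximal part of chromosome 7, had the largest differences of the 9 genes, and they ran against H19. At the lead probe, A_55_P2163319 (chr7:6661407-6661466), type 1 myofibers ranged from 4.94 to 8.31 with a median of 6.16. Type 2B myofibers ranged from 8.51 to 13.75 with a median of 10.51. No type 1 myofiber reached the lowest of type 2B. The difference was 4.29 ± 0.53, or 19.6-fold. At the second probe, A_52_P235861 (chr7:6658774-6658833), the types ranged from 2.44 to 7.68 and from 6.64 to 11.27, and the difference was 5.13 ± 0.68. Its ranges met through the type 1 myofiber S10.8 (7.68) and the type 2B myofibers E14.3 (6.64) and E7.7 (7.14).

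The level of Peg3 varied within each type. The within-type SD was 1.30 at the lead probe and 1.67 at the second, above 88.5% and 95.4% of the probes of like level. The deviations of the 2 probes had r = 0.34 across the 21 myofibers, so that they ranked the myofibers of a type differently: E10.4 was highest at the lead probe (13.75) and E8.3 (11.27) at the second. Within mice 3, 4 and 9 the lead probe differed by 3.33, 7.42 and 4.64. Within slides 1, 2 and 3 it differed by 4.85, 3.78 and 3.70, each without overlap, and without S6.4 by 4.26 ± 0.56. Over mouse means the level was 6.28 ± 0.57 (SD, n = 6 mice) in type 1 and 10.82 ± 1.61 (SD, n = 6 mice) in type 2B.

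The Dlk1 and Meg3 cluster on chromosome 12 showed smaller differences. Dlk1, a paternally expressed membrane protein of the Notch ligand type, restrains differentiation. Its lead probe was well above background in 10 of 11 type 1 and 8 of 10 type 2B myofibers. It lay between 5.33 and 7.46 in the type 1 and between 5.16 and 7.12 in the type 2B myofibers, and the difference was 0.36 ± 0.26. The second probe was well above background in 0 of 11 type 1 and 2 of 10 type 2B myofibers.

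Meg3 is the maternally expressed non-coding RNA of the cluster, and had 3 probes. The lead probe lies on the forward strand at chr12:110809678-110809737.

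At the Meg3 lead probe, type 1 myofibers ranged from 5.39 to 8.08 with a median of 7.16, and type 2B myofibers from 4.64 to 9.46 with a median of 5.68. The difference was -0.98 ± 0.46, with overlap. The other probes differed by -1.15 ± 0.75 and -0.45 ± 0.50. The type 2B myofiber E13.3 was the highest of its type at all 3 probes. Its lead probe value was 9.46, and the next type 2B myofiber, E12.5, had 7.03. At another of the 3 probes it had 5.52, within the range of type 1. Without E13.3 the difference at the lead probe was -1.37 ± 0.33. Within mice 3, 4 and 9 it was -0.52, -1.36 and -2.55.

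Rian, the non-coding RNA between Meg3 and Mirg that hosts small nucleolar RNAs, had no probe of that name. Mirg, at the far end of the cluster, hosts many microRNAs. Its lead probe (chr12:110987569-110987628) had its lowest type 1 value at 7.278 and its highest at 9.598, and in type 2B at 7.535 and 9.202, with a difference of 0.08 ± 0.25. The second probe differed by -0.26 ± 0.30.

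Airn is the paternally expressed non-coding RNA that overlaps Igf2r on chromosome 17 and silences it on the same copy during development. Its lead probe (chr17:13008078-13008137) spanned 9.51 to 12.09 in type 1 and 9.14 to 11.24 in type 2B, with a difference of -0.01 ± 0.31. The other 3 Airn probes differed by 0.10, -0.19 and -0.21, each within 1 standard error of 0. The amplification and labelling used here do not keep the strand, so Airn and Igf2r reads from the same stretch cannot be told apart. In the chromosome 12 cluster, 7 pairs of tiled probes that cover the same stretch on opposite strands (51 to 58 shared bases) had r between 0.27 and 0.95 across the myofibers.

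**Figure D3:**
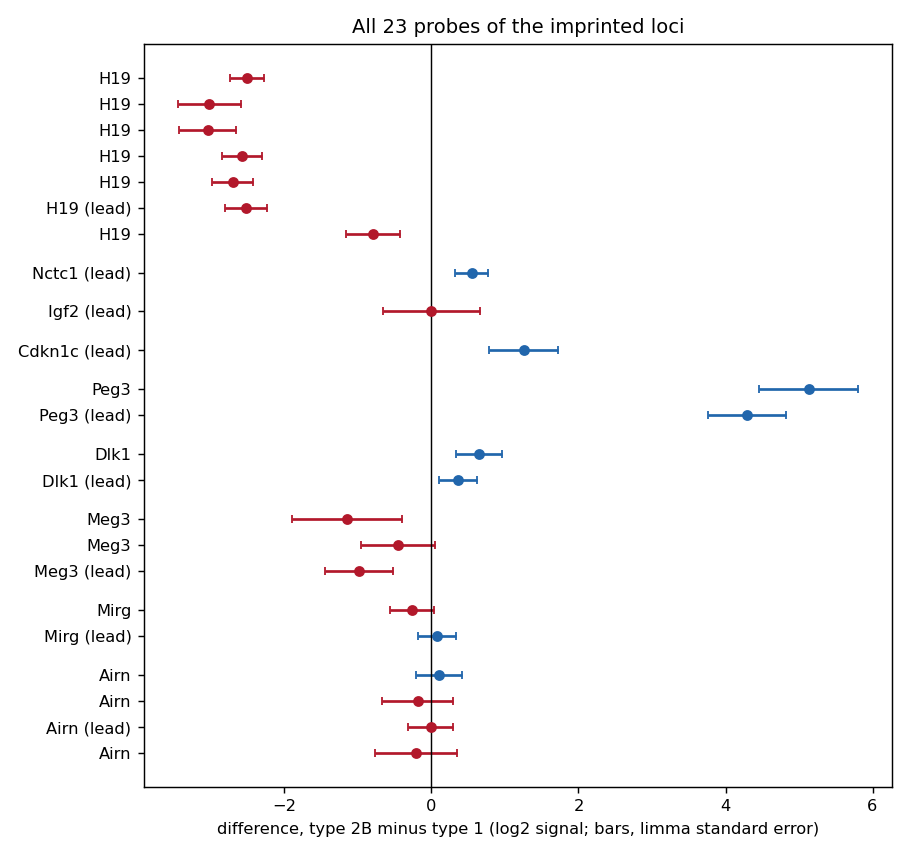
Difference of each of the 23 probes, type 2B minus type 1, in log2 signal, with the limma standard error as bars. The 6 H19 probes nearer the 3′ end lie to the left and those of Peg3 to the right. The remaining probes, with the last H19 probe (-0.79) among them, lie between -1.15 and 1.25.

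All 23 probes passed the filter on dim probes, and 12 were well above background in all 21 myofibers. Past the Bonferroni threshold over the 46925 probes tested were 8 of the 23, against 1.43% of all probes. They were 6 of the 7 H19 probes, higher in type 1 (background 0.82%), and both Peg3 probes, higher in type 2B (background 0.612%). With Benjamini-Hochberg adjustment the count was also 8 (background 7.57%), again 6 higher in type 1 (background 4.09%) and 2 higher in type 2B (background 3.48%). The groups did not overlap at 5 of the 23 probes, against 1.34% of all probes, 4 higher in type 1 (background 0.71%) and 1 higher in type 2B (background 0.629%). Since the genes were chosen on this contrast, nothing is read from these counts. The median difference over the 23 probes was -0.21, and over all probes tested 0.03.

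RNA of other cells on a myofiber can add to its signal. By qPCR the paper found satellite cell markers lower in single myofibers than in satellite cells, and it calls that contribution negligible. Of the 5 satellite cell markers (Pax7, Myf5, Myod1, Ncam1 and Cdh15), 4 were well above background in at least 6 type 1 myofibers and 3 in at least 5 type 2B myofibers, and Myf5 was in none. Their summed intensity was 1540 to 8460 in type 1 and 815 to 4850 in type 2B. One of them, Ncam1, was higher in type 1 (-2.50 ± 0.56, limma, Benjamini-Hochberg adjusted p = 0.0050). The others did not go one way: Pax7 differed by -1.37 ± 0.54, Cdh15 by 1.12 ± 0.40 and Myod1 by 0.02 ± 0.42 (limma, Benjamini-Hochberg adjusted p = 0.15, 0.10 and 0.99). Of the 6 connective tissue markers, 2 were well above background in at least 6 type 1 and 2 in at least 5 type 2B myofibers, Pdgfra and Lum in none, and their sum was 285 to 4760 and 215 to 692. The collagen gene Col3a1 was higher in type 1 (-2.45 ± 0.48, limma, Benjamini-Hochberg adjusted p = 0.0014), the direction of H19. The other connective tissue markers tested did not pass. Col1a1 differed by -0.96 ± 0.54, Col1a2 by -0.23 ± 0.44 and Dcn by -0.21 ± 0.66 (limma, Benjamini-Hochberg adjusted p = 0.37, 0.85 and 0.92). Of 5 endothelial and 5 blood cell markers, 3 and 4 were well above background in at least 6 type 1 and 2 and 3 in at least 5 type 2B myofibers. Their sums were 1540 to 3670 and 359 to 8630 in type 1, and 1500 to 4180 and 382 to 765 in type 2B, and the smallest adjusted p among their genes was 0.052 (limma, Benjamini-Hochberg), that of Tek (-1.78 ± 0.56). There were 3 genes of developing or regenerating muscle (Myh3, Myh8 and Myog). Myh3 was at least 28.4-fold higher in type 1, with no type 2B myofiber well above background (limma, Bonferroni adjusted p = 2.7e-08). It was positive and significant in 11 type 1 and 2 type 2B myofibers, so it passed the filter through type 1 alone. Myh8 and Myog ran in opposite directions, with differences of 0.51 ± 0.19 and -1.39 ± 0.49 (limma, Benjamini-Hochberg adjusted p = 0.13 and 0.096). The summed intensity of the 3 was 3930 to 71200 in type 1 and 31600 to 76000 in type 2B. Myh8 had a value in 10 of the 11 type 1 myofibers, 14.99 or more in each, so the sum of 3930 lacks Myh8. Within types, the deviation of the H19 lead probe had r = -0.22 with the log2 sum of the satellite cell list over 21 myofibers, -0.19 with connective tissue, 0.41 with endothelial cells, -0.15 with blood cells and -0.01 with developing muscle. That of Peg3 had r = -0.09, -0.24, -0.15, -0.36 and 0.10 in the same order. The values for developing muscle include the myofiber without Myh8. The part of other cells in the differences between types was not tested.

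The loci were also compared across the myofibers within a type. Over the 36 pairs of the 9 lead probes, Pearson r of the deviations from the type means ran from -0.55 to 0.59 (n = 21 myofibers, which share mice and slides). H19 had r = 0.04 with Igf2 (Spearman's rho 0.06), 0.25 with Nctc1 (rho 0.08), -0.21 with Meg3 (rho -0.23) and -0.02 with Peg3 (rho 0.05). Without the 2 myofibers farthest from the median of H19, these were -0.05, -0.03, -0.01 and -0.01, and without the 2 farthest in the other gene they were 0.15, 0.33, -0.40 and 0.02. Meg3 had r = 0.18 with Dlk1, its reciprocal partner, and 0.30 with Mirg. The highest r, 0.59, was that of Mirg and Airn (rho 0.42), and it was 0.27 without the 2 myofibers farthest from the median of Airn, 0.68 without the 2 farthest in Mirg, 0.39 with slide taken out and 0.65 with the median over the probes of a gene. In type 1 alone it was 0.37 and in type 2B alone 0.90. The lowest, -0.55, was that of Igf2 and Mirg (rho -0.55). It was -0.71 without the 2 myofibers farthest in Mirg, -0.48 without the 2 farthest in Igf2, -0.38 with slide taken out and -0.26 with the median over probes, and -0.15 in type 1 and -0.88 in type 2B alone. With the share of positive and significant probes of an array, Mirg had r = 0.50, Airn 0.32 and Igf2 -0.47. With the connective tissue sum these were 0.41, 0.70 and -0.19, and with the endothelial sum, mostly Kdr, 0.66, 0.37 and -0.29. The part of array quality and other cells in these correlations was not tested.

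**Figure D4:**
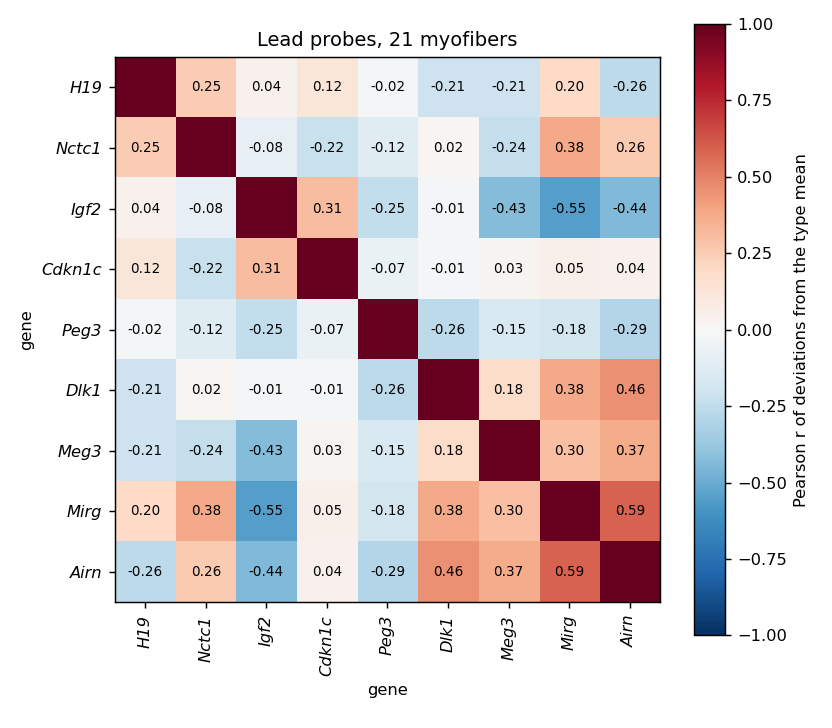
Pearson r between the lead probes of the 9 genes, taken over the deviations of 21 myofibers from their type means (red positive, blue negative). Values run from -0.55 for Igf2 and Mirg to 0.59 for Mirg and Airn, and those in the row of H19 lie between -0.26 and 0.25.

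Among 18020 other genes measured in all 21 myofibers, those most like H19 in their deviations from the type means were 4 tiled intergenic regions (probes A_30_P01028415, A_30_P01026754, A_30_P01024729 and A_30_P01021989, r = 0.80, 0.79, 0.78 and 0.78) and Gcgr, the glucagon receptor (r = 0.77). Of these genes, 24.6% were more like H19 than Nctc1 was, 55.6% more than Igf2 and 86.7% more than Meg3. Those most like Meg3 were 4930422I07Rik and a tiled region (A_30_P01020701, both r = 0.78), another tiled region (A_30_P01029617), 9630025I21Rik and Nagpa (each r = 0.77). Airn stood nearest to Meg3 among the loci, with 5.88% of the genes more like it.

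The probes that lie between Meg3 and Mirg, in the stretch that holds Rian, followed Meg3 in part. There were 52 such probes, tiled regions for the most part, of which 44 were tested. Between the types 0 passed either limma threshold and 2 had an unadjusted p under 0.05. Their r with the Meg3 lead probe had a median of 0.38, against -0.01 over all probes tested, and 12 of the 44 (27.3%) had r above 0.5, against 1.49% of all probes. With slide taken out the median was 0.42. The 13 probes between Dlk1 and Meg3 had a median of 0.01 and none above 0.5. The type 2B myofiber E13.3 was the highest type 2B myofiber at 14 of the 44 probes (31.8%, against 8.95% of all probes). Without E13.3 the median was 0.26 and 2 of the 44 (4.55%) had r above 0.5, against 0.991% of all probes. Without the 2 myofibers farthest in Meg3, 4 of the 44 (9.09%) were above 0.5, against 1.07%. In type 1 alone the median was 0.17, with 9.09% above 0.5 against 7.78% of all probes, and in type 2B alone, E13.3 included, it was 0.49, with 47.7% against 5.85%.

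**Figure D5:**
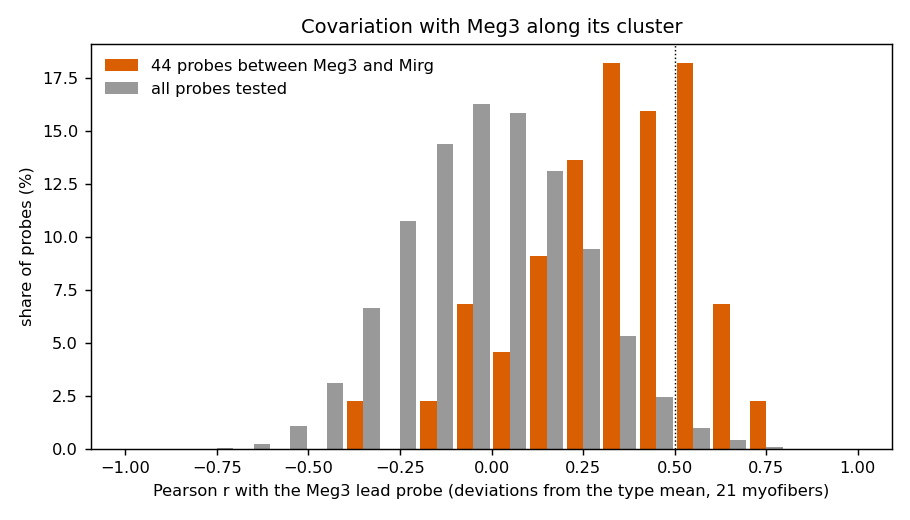
Share of probes (%) by their Pearson r with the Meg3 lead probe over 21 myofibers, for the 44 tested probes between Meg3 and Mirg (orange) and all probes tested (grey), with a dotted line at 0.5. The orange bars lie to the right of the grey ones, with medians of 0.38 and -0.01.

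No difference between animals was detected at these loci. In a limma F test of mouse beside fiber type, 0 of the 23 probes passed Benjamini-Hochberg adjustment (smallest adjusted p = 0.83) and 0 had an unadjusted p under 0.05, against 0.839% and 6.58% of all probes. In the same test of slide beside type, 4 of the 23 had an unadjusted p under 0.05, 1 of Dlk1, both of Mirg and that of Igf2, against 26.6% of all probes, and the smallest adjusted p was 0.060, at the Dlk1 probe. In a table of normalized values that was deposited beside the scanner output, the columns of E13.3 and E12.5 follow each other's scanner output. These are the myofibers that stood out for Meg3 and H19. Both are type 2B, from mice 3 and 5, so an exchange of the labels would leave the type contrast as it is and move their mice.

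Other imprinted genes were taken as a list of 56, of which 54 were on the array, with 74 probes of 49 genes tested. Past the Bonferroni threshold was 1 probe (1.35%, against 1.43% of all probes), that of Slc22a2, an organic cation transporter next to Igf2r and Airn. It had type 1 values of 3.48 to 7.88 and type 2B values of 1.63 to 2.21, where no myofiber was well above background, and was at least 2.77-fold higher in type 1 (limma, Bonferroni adjusted p = 2.5e-05). It was positive and significant in 11 type 1 and 1 type 2B myofibers, so it passed the filter through type 1 alone. The probe did not pass with another background correction (normexp, -1.13 ± 0.21) or without mouse 3 (-3.98 ± 0.56). With Benjamini-Hochberg adjustment 8 of the 74 probes passed, 4 in each direction, against 7.57% of all probes, so that nothing particular to the list is read from the count. Higher in type 2B were the amino acid transporter Slc38a4 (difference 2.22 ± 0.53, limma, Benjamini-Hochberg adjusted p = 0.0080), Asb4 (1.61 ± 0.42, p = 0.017) at 1 of 2 probes, Slc22a18, which lies near Cdkn1c (1.00 ± 0.26, p = 0.017), and Peg13 (0.92 ± 0.27, p = 0.035). Higher in type 1 beside Slc22a2 were Inpp5f (-2.56 ± 0.46, p = 0.00055), Nap1l5 (-1.56 ± 0.40, p = 0.014) and Ppp1r9a (-1.94 ± 0.60, p = 0.049). The second tested probes of Asb4, Nap1l5 and Ppp1r9a differed by 0.18 ± 0.24 (p = 0.78), -1.20 ± 0.38 (p = 0.057) and -0.62 ± 0.47 (p = 0.55, limma, Benjamini-Hochberg adjusted). The median difference of the list was 0.01.

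Apart from Slc22a2 and Slc22a18, the neighbours tested did not pass Benjamini-Hochberg adjustment. In the Peg3 domain Usp29 differed by 0.49 ± 0.48 and Zim1 by 1.29 ± 0.40 (limma, Benjamini-Hochberg adjusted p = 0.67 and 0.053), both near background, and Zfp264 did not reach the filter. Igf2r, the target of Airn, differed by -0.40 ± 0.25 (p = 0.43), Slc22a3 by -1.60 ± 0.56 (p = 0.088), and Kcnq1ot1, the non-coding RNA that silences Cdkn1c, by 0.54 ± 0.41 and 0.66 ± 0.52 at its tested probes (p = 0.55 and 0.57). Rtl1 and Dio3 of the chromosome 12 cluster differed by 0.05 ± 0.20 and 0.15 ± 0.27 (p = 0.93 and 0.85).

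In the IGF system, the receptors and carriers around Igf2, 19 probes of 12 genes were tested, 7 had an unadjusted p under 0.05 (against 18.5% of all probes), 0 passed Bonferroni (against 1.43%), and 4 passed Benjamini-Hochberg adjustment (21.1%, against 7.57%), 2 in each direction. A probe of Igf2bp2, which binds the Igf2 mRNA, lay between 5.66 and 7.84 in the type 1 and between 8.00 and 9.91 in the type 2B myofibers, without overlap (difference 1.75 ± 0.29, limma, Benjamini-Hochberg adjusted p = 0.00024). The second Igf2bp2 probe overlapped between the types (0.60 ± 0.36, p = 0.41). Igfbp5, an IGF-binding protein, was also higher in type 2B (1.57 ± 0.43, p = 0.024). Igfbp7 (-1.57 ± 0.38, p = 0.0090) and the insulin receptor Insr at 1 of its 3 probes (-1.20 ± 0.30, p = 0.013) were higher in type 1. The other Insr probes differed by -1.12 ± 0.39 (p = 0.094) and 0.004 ± 0.689 (p = 0.999). The median of the list was -0.22. Of 10 probes of the other CDK inhibitors, 3 had an unadjusted p under 0.05, 0 passed Bonferroni and 1 passed Benjamini-Hochberg adjustment, against the same shares of all probes. It was 1 of 3 Cdkn1a probes (-1.36 ± 0.41, p = 0.040), the others differing by -0.23 and 0.12, and the median was -0.11. Of 12 probes of imprint-control genes such as Ctcf, Trim28 and the DNA methyltransferases, 0 passed either threshold, 1 had an unadjusted p under 0.05, and the median was -0.11.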

How the data were processed

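For each of the 21 arrays the authors deposited the scanner output, with a processed intensity per spot that Feature Extraction 10.7.3.1 had corrected for background, not normalized between arrays. They also deposited quantile normalized intensity values for 3687 features, used as an alternative only. RNA had been amplified from the whole transcriptome, a step that can distort levels.

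Control spots and spots with an outlier flag were left out. The processed intensity was quantile normalized, taken as log2 and averaged per probe (R 4.3.3, limma 3.58.1; figures with Python 3.11.15). A probe entered the fit if it was positive and significant on 50% or more of the arrays of either type, which left 46925 probes, fitted with mouse as a random block (duplicateCorrelation, -0.017) and Bonferroni or Benjamini-Hochberg adjustment over all of them at 0.05. The limma fit was tried without the mouse block on simulated data with independent noise, a simpler setting than that of the arrays. Mouse and slide were tested with limma F tests. Where no myofiber of a type was well above background, a fold was bounded against the lowest signal well above background. The number of arrays limits the precision.

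Groups and mice came from the labels. The genes and lists were chosen with earlier results of these data known. Every probe of a listed gene was counted, and the lead probe chosen without regard to type. Of the wider lists, probes past Bonferroni were named, then those with the smallest p past Benjamini-Hochberg, and Ppp1r9a and neighbours of the loci after their values were seen. Likeness was Pearson r of deviations from the type means, for the 5 closest genes. Coordinates are those of the scanner files (mm9), and the probes were not aligned again. The sequences of the Meg3 probes are not reported here. The same replicate numbers in both types did not pair the samples: over 10 same-numbered pairs the correlation of deviations ran from -0.16 to 0.20.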

Additional observations from a re-analysis of the deposited data

Results flagged for a closer look

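Over 27 groups examined (the 10 type 2B myofibers, and the 6 mouse means of each type, at 9 lead probes), 2 held a value far from the others. Chance alone gives about 1 in 20 such groups. H19 in the type 2B myofiber E12.5 was 10.54, with the next at 12.16 and the highest at 13.23. E12.5 was the lowest of its type at 4 of the 7 H19 probes, against 12.4% of all probes tested, and without it the H19 difference was -2.29 ± 0.22. Meg3 in the type 2B myofiber E13.3 was 9.46, with the next at 7.03 and the lowest at 4.64. E13.3 was the highest of its type at all 3 Meg3 probes, and without it the Meg3 difference was -1.37 ± 0.33. Both counts of probes include the lead probe at which the value was found, and probes of a gene share an array, so they are not independent.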

How the results depend on the processing

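At the H19 lead probe the difference kept its sign under all 26 alternatives, between -2.69 and -2.29, and at the Meg3 lead probe between -1.37 and -0.46, the lowest without E13.3 and the highest with normexp background correction. The Peg3 lead probe stayed between 3.52 and 4.85 (25 alternatives). The other lead probes moved by more than the within-type SD only within slide 1, Nctc1 to 1.11 and Airn to 0.90. The count of 8 member probes past Bonferroni was 4 with slide as a fixed block, 1 with mouse as a fixed block and 0 with 1 mean per mouse and type. It was 0 within slide 1, 0 within the other slides and 5 with a Welch t-test, which unlike the t-test of the study used no permutation. Over the 9 fits that leave out a mouse it was 3 to 8, with 3 without mouse 3, the mouse with the most myofibers, and 4 without mouse 2. The settings within slides, without a mouse and with 1 mean per mouse use fewer samples, and for the others the cause was not tested.

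With the replicate block, which pairs samples by number only, the count was 5, the H19 difference -2.62 and the Meg3 difference -0.95.

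The single Slc22a2 probe past Bonferroni gave a count of 0 with normexp background correction (difference -1.13), within slide 1 and without mouse 3, so that leaving out a mouse gave 0 to 1. The count was also 0 with spots below background missing and in the deposited value table, where the Slc22a2 probe was not among those tested. Benjamini-Hochberg adjustment gave 8 probes of other imprinted genes and the Welch t-test with it 7. For the IGF, CDK inhibitor and imprint-control genes these counts were 5 and 4, against 0 with Bonferroni in every setting run. No member probe differed between mice in any of the 4 settings run. Of the 36 correlations, 5 moved beyond their jackknife standard error with slide taken out, 6 with 75th percentile normalization, 11 with the median over probes and 0 without S6.4. The fits without E12.5 or E13.3 were chosen after seeing the data.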

Other observations

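Among the probes between Meg3 and Mirg, that of 6430411K18Rik split the arrays by slide and not by type: the 8 myofibers of slide 1 lay between 5.30 and 6.34 and the 13 of the other slides between 10.06 and 12.18. This probe was singled out after its values were seen.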
